A study of Arabidopsis thaliana with 6 samples.

Results

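The NPF and NRT2 genes encode the nitrate, peptide and hormone transporters of Arabidopsis thaliana, and their transcripts were compared between a mutant of the RNA-binding protein gene HRLP and the wild type. The genes were chosen by row name, as every row named NPF or NRT2 followed by its subfamily and member number, which gave 45 of the 22759 named rows (40 NPF and 5 NRT2). The name rule reads no measured value, but the family itself was proposed with results of this same comparison known, so that counts over the family are a description and not independent evidence. RNA was sequenced from the aerial parts of seedlings at 9 days, grown with 16 h of light and 8 h of dark a day, with 3 biological replicates of wild-type Columbia (WT) and 3 of hrlp-2, the mutant line that the labels describe as an HRLP knock out. All plants shared the Columbia background and the same growth conditions as far as the labels say, and roots were not harvested. Each library's read counts had been scaled to the same total (CPM), and 1 read was worth 0.0397 to 0.0501 CPM in a library, as estimated from the spacing of the low values.

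NPF proteins (also called NRT1 or PTR proteins) are proton-coupled transporters of the plasma membrane and the vacuolar membrane. The family arose from peptide transporters, and single members carry nitrate, nitrite, dipeptides, glucosinolates, abscisic acid, gibberellin or auxin. NRT2 proteins are high-affinity nitrate transporters, most of which need the partner protein NRT3.1 (NAR2.1), and they are best known from the root. In shoots, nitrate is unloaded from the xylem, reduced in the mesophyll, stored in vacuoles, and in part moved into the phloem for transport to young leaves.

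HRLP itself (AT2G44710) was lower in hrlp-2 but was not at 0. It measured 30.03, 33.04 and 30.37 CPM in the WT libraries and 16.76, 17.03 and 15.88 CPM in the hrlp-2 libraries, a ratio of 0.532 between the means (log2 fold change -0.87, SE 0.065, limma adjusted p = 3.99e-12). These values are totals over the gene, and where along it the remaining reads lie was not analysed here. Leaf mesophyll markers were abundant. RCA (the activase of Rubisco) measured 7898 ± 107 CPM in the WT libraries and 7947 ± 109 CPM in the hrlp-2 libraries (adjusted p = 0.186). LHCB1.3, a light-harvesting protein gene, measured 18751 ± 251 and 18792 ± 349 CPM (SD, n = 3 each, adjusted p = 0.279). RBCS1A, the remaining marker of that list, was called higher, at 15337 ± 357 and 15977 ± 207 CPM (adjusted p = 0.000183). Of 5 root markers with a row, CASP2 and CASP4 had a listed value of 0 in every library, COBL9 reached at most 0.09 CPM and CASP1 at most 0.75 CPM. The fifth, PYK10 (row BGLU23), went from 232 ± 0.774 to 267 ± 7.80 CPM (adjusted p = 1.22e-07), and its part in the results was not tested. WT and hrlp-2 libraries lay on opposite sides of the first principal component (42.3% of the variance).

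Of the 45 rows, 28 could be placed at a locus of the RefSeq annotation of TAIR10.1, and 17 (among them NPF1.1, NPF5.7, NPF5.10 and NPF6.1) could not, so that no position or length is given for those. The upstream sequence of 4 members is shown, as pairs of relatives that were picked with their values in view. NPF2.10 and NPF2.11, which share 78.2% of their aligned coding bases and lie on different chromosomes, both rose. Among the placed members, which alone were searched for neighbours, NPF8.3 and NPF8.4 (chromosome 2) were the pair of tested neighbours in 1 subfamily. Their fold changes had opposite signs, and NPF8.4 was not called. The sequences are the 250 bases before the annotated gene start in RefSeq's TAIR10.1, read 5′ to 3′ on the gene's own strand. They lie at chr3:17700924-17701173 (minus strand) for NPF2.10, chr5:25168061-25168310 (minus) for NPF2.11, chr2:487148-487397 (plus) for NPF8.3 and chr2:478727-478976 (plus) for NPF8.4. Capitals mark matches, on either strand, to the motifs searched.
NPF2.10: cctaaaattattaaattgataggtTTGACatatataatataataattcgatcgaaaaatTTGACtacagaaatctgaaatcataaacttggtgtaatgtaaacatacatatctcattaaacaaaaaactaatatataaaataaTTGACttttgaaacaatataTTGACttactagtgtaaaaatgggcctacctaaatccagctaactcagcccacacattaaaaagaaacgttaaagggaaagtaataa
NPF2.11: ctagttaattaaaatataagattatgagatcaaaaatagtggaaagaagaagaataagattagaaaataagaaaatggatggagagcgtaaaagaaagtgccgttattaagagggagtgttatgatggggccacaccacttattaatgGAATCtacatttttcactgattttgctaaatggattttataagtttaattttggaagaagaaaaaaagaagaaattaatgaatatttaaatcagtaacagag
NPF8.3: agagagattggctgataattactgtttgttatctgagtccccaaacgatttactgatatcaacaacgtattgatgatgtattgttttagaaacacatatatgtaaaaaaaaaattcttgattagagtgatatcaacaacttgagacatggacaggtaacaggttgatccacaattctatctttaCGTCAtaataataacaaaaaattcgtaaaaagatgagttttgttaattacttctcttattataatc
NPF8.4: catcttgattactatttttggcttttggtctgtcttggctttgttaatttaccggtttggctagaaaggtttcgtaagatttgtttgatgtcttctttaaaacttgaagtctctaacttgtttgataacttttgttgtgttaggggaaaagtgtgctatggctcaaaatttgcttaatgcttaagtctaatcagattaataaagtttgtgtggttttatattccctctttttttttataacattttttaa

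A set of 5 short motifs was searched on both strands. ACGTG is the core of the abscisic acid response element. The G-box, CACGTG, contains that core. WRKY factors bind sites with the core TTGAC. TGA factors bind sites with the core TGACG, which can overlap the WRKY core by 4 bases. HRS1 and HHO factors bind sites with the core GAATC. The NPF2.10 window held 4 matches to TTGAC, the NPF2.11 window 1 match to GAATC and the NPF8.3 window 1 match to TGACG, on its opposite strand. None of these motifs was found in the NPF8.4 window. Over the 28 placed members, TTGAC was present in 9 windows (32.1%), against 44.9% of all 27443 upstream windows of the annotation. GAATC was also present in 9 (32.1%, against 38.8%), ACGTG in 5 (17.9%, against 22.9%), TGACG in 5 (17.9%, against 18.6%) and CACGTG in 0 (against 6.49%). No motif of the set was found in all placed members that rose, and each share over the family was below the share over all windows, with no test made.

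A set of 11 NPF genes rose in hrlp-2, all by modest amounts, and no NPF or NRT2 gene passed the test as lower. Of the 45 rows, 37 had at least 0.5 CPM in at least 3 libraries and were tested, 11 of them were called higher by limma (adjusted p under 0.05 over all 18643 tested rows) and 26 were not called. The share called higher was 29.7% of the tested members, beside 11.0% of all tested rows. Called lower were 0 members, beside 9.31% of all tested rows, and 1 member with a negative fold change (NPF8.4) had an unadjusted p under 0.05. The groups did not overlap, with hrlp-2 higher, for 13 tested members, beside 14.7% of all tested rows, and with hrlp-2 lower for 2 tested members, beside 18.7%. The fold change was positive for 29 tested members and negative for 8, and 6 members, none of them called, changed sign under at least 1 alternative. The shares over all rows depended on the scaling, and with the CPM as deposited 8.79% of rows were called higher and 10.9% lower, with the same 11 members called. The median log2 fold change was 0.18 over the tested members and 0.00 over all tested rows. Because the family was selected on this comparison, these shares are set side by side and nothing is read from them. The same shares over all rows stand beside the counts by subfamily below. In whole aerial tissue, more cells of a type that expresses a transporter and more transcript per cell cannot be told apart, and this holds for every change below.

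**Figure D1:**
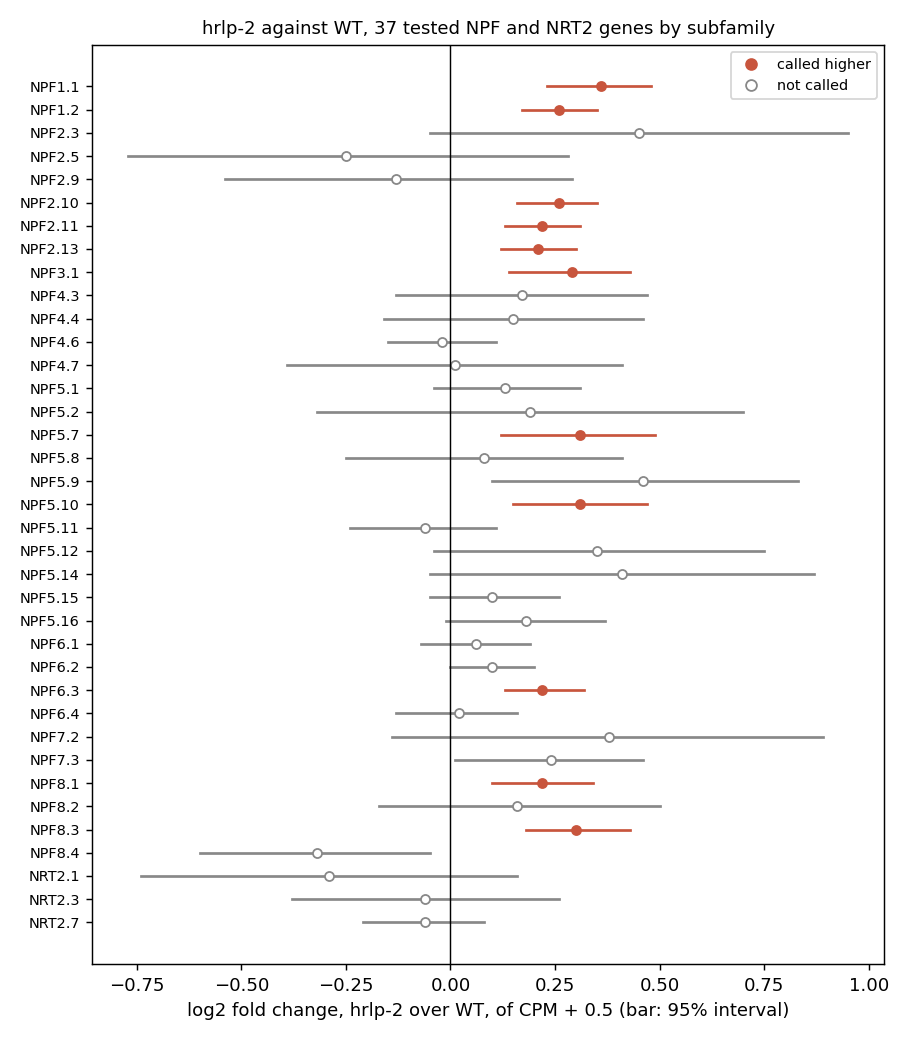
Log2 fold change of hrlp-2 over WT for the 37 tested NPF and NRT2 genes (horizontal axis, on CPM + 0.5, bars are 95% intervals of the limma fit), with genes on the vertical axis grouped by subfamily. The 11 genes called higher (filled) lie between 0.21 and 0.36, while the genes not called (open) run from -0.32 to 0.46 with wider bars for most of them.

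Both tested NPF1 genes rose, beside 11.0% of all tested rows. NPF1.1 and NPF1.2 are plasma membrane transporters of companion cells that transfer nitrate to the phloem of leaves. NPF1.1 measured 21.61, 21.46 and 22.41 CPM in WT and 28.43, 27.47 and 27.26 CPM in hrlp-2. Every hrlp-2 library lay above every WT library, and its log2 fold change of 0.36 (SE 0.061, adjusted p = 4.05e-05) was the largest among the members that were called. NPF1.2 (AT1G52190) measured 57.46, 61.51 and 57.53 CPM in WT and 64.68, 71.58 and 72.19 CPM in hrlp-2 (log2 fold change 0.26, SE 0.045, adjusted p = 5.82e-05). Its lowest hrlp-2 library was still above its highest WT library. The third NPF1 row, NPF1.3, had at most 0.14 CPM in a WT library and was listed at 0 in the hrlp-2 libraries, and it was not tested.

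Among the 6 tested NPF2 genes, 3 rose, beside 11.0% of all tested rows. NPF2.10 (GTR1) and NPF2.11 (GTR2) import glucosinolates, the defence compounds of the mustard family, and NPF2.13 (NRT1.7) loads nitrate into the phloem of older leaves. NPF2.10 (AT3G47960) measured 54.06, 53.22 and 54.45 CPM in WT and 59.20, 63.54 and 68.32 CPM in hrlp-2 (log2 fold change 0.26, SE 0.046, adjusted p = 0.0001). Its WT libraries were close to one another, whereas its hrlp-2 libraries were spread, with an SD of 0.629 against 4.56 CPM. NPF2.11 (AT5G62680) measured 46.61, 44.17 and 44.31 CPM in WT and 51.86, 52.30 and 51.29 CPM in hrlp-2 (log2 fold change 0.22, SE 0.046, adjusted p = 0.000506). NPF2.13 (AT1G69870) measured 55.67, 52.95 and 50.20 CPM in WT and 60.87, 60.54 and 59.76 CPM in hrlp-2 (log2 fold change 0.21, SE 0.044, adjusted p = 0.000668). For both genes the groups did not overlap. Here the hrlp-2 libraries lay closer together than the WT libraries, and this was not tested either. NPF2.10 and NPF2.11 have a longest identical run of 38 coding bases, and the read length is not given in the sources used here.

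The remaining NPF2 rows were weak. NPF2.9 (NRT1.9, a phloem nitrate transporter known from roots) measured 3.11, 1.56 and 2.68 CPM in WT and 2.80, 1.92 and 1.70 CPM in hrlp-2, and the groups overlapped (log2 fold change -0.13, 95% interval -0.54 to 0.29, adjusted p = 0.725). NPF2.3 and NPF2.5 lay between 0.40 and 1.70 CPM in all libraries and had adjusted p-values of 0.217 and 0.562. NPF2.12 (NRT1.6), which delivers nitrate to the developing embryo, reached at most 0.09 CPM and NPF2.4 at most 0.14 CPM, and neither was tested.

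NPF3.1, the single NPF3 gene, transports nitrite and gibberellin, and it rose. It (AT1G68570) measured 17.22, 17.57 and 19.10 CPM in WT and 22.83, 20.23 and 22.14 CPM in hrlp-2, and the groups did not overlap (log2 fold change 0.29, SE 0.071, adjusted p = 0.00331).

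None of the 4 tested NPF4 genes passed the test. NPF4.6 (NRT1.2 or AIT1, AT1G69850), a low-affinity nitrate transporter that also imports abscisic acid, measured 22.63, 22.66 and 21.27 CPM in WT and 22.47, 20.93 and 21.36 CPM in hrlp-2. The libraries of the groups were interleaved, and the log2 fold change of -0.02 had a 95% interval of -0.15 to 0.11 (adjusted p = 0.882). NPF4.3, NPF4.4 and NPF4.7 lay between 1.45 and 4.85 CPM with log2 fold changes of 0.17, 0.15 and 0.01, and their groups overlapped. NPF4.5 reached at most 0.13 CPM and was not tested.

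NPF5, the subfamily with the most rows, had 2 members that rose among 11 tested, beside 11.0% of all tested rows. NPF5.10 measured 14.42, 13.97 and 12.45 CPM in WT and 16.80, 16.88 and 16.48 CPM in hrlp-2 (log2 fold change 0.31, SE 0.079, adjusted p = 0.00458). NPF5.7 measured 9.65, 9.80 and 9.82 CPM in WT and 12.75, 11.44 and 11.92 CPM in hrlp-2 (log2 fold change 0.31, SE 0.091, adjusted p = 0.0141). In both genes all hrlp-2 libraries lay above all WT libraries. The NPF5.7 call was lost without hrlp-2 replicate 1, its highest library (adjusted p = 0.0757).

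The vacuolar nitrate exporters of NPF5 did not pass the test. NPF5.11, NPF5.12 and NPF5.16 release nitrate from the vacuole into the cytosol. NPF5.11 measured 14.67, 13.22 and 15.71 CPM in WT and 14.69, 12.89 and 13.49 CPM in hrlp-2 (log2 fold change -0.06, adjusted p = 0.672). NPF5.16 measured 10.59, 10.16 and 12.18 CPM in WT and 11.36, 13.29 and 12.34 CPM in hrlp-2 (0.18, adjusted p = 0.187). NPF5.12, at 1.68 ± 0.445 CPM in the WT libraries and 2.23 ± 0.340 CPM in the hrlp-2 libraries (SD, n = 3 each), had a log2 fold change of 0.35 with a 95% interval of -0.04 to 0.75 (adjusted p = 0.213). The groups overlapped in all 3 genes. NPF5.2 (PTR3), a wound-induced peptide transporter gene, lay between 0.49 and 1.11 CPM in all libraries (adjusted p = 0.655).

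Of the other NPF5 rows, NPF5.9 had the largest log2 fold change of any tested member, on CPM + 0.5, and was not called. It measured 1.91, 1.60 and 2.69 CPM in WT and 2.75, 2.84 and 3.26 CPM in hrlp-2, with no overlap (log2 fold change 0.46, SE 0.18, adjusted p = 0.0655), and it passed without WT replicate 3, its highest WT library (adjusted p = 0.0216). It was singled out after its values were seen. By the ratio of means, without the added 0.5 CPM, tested NPF7.2 (1.65), NPF2.3 (1.61) and NPF5.14 (1.48) ranked above NPF5.9 (1.43). NPF5.1 and NPF5.15, between 11.54 and 17.63 CPM, and NPF5.8 and NPF5.14, between 0.68 and 3.35 CPM, had positive fold changes and overlapping groups. NPF5.6 and NPF5.13 were too weak to be tested. NPF5.13 and NPF5.14 lie 6 bases apart on chromosome 1 and share 88.5% of their aligned coding bases with an identical run of 52 bases, so their reads could be split or lost in counting, and both values are uncertain.

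In NPF6, the nitrate sensor gene rose and its 3 relatives did not pass. NPF6.3 (NRT1.1 or CHL1, AT1G12110) is the nitrate transporter of changeable affinity that also senses nitrate and carries auxin. It measured 49.25, 43.91 and 44.77 CPM in WT and 52.29, 53.70 and 52.99 CPM in hrlp-2, and the groups did not overlap (log2 fold change 0.22, SE 0.048, adjusted p = 0.000752). NPF6.2 (NRT1.4, AT2G26690), which stores nitrate in the leaf petiole, measured 44.10, 47.05 and 42.86 CPM in WT and 46.97, 48.80 and 45.62 CPM in hrlp-2. Its groups overlapped, and the log2 fold change was 0.10 (95% interval -0.00 to 0.20, adjusted p = 0.166). NPF6.4 (NRT1.3, AT3G21670) measured 17.56, 17.56 and 18.92 CPM in WT and 17.55, 18.08 and 18.23 CPM in hrlp-2 (0.02, 95% interval -0.13 to 0.16, adjusted p = 0.914). NPF6.1 lay between 23.94 and 27.37 CPM in all libraries, with overlapping groups (0.06, adjusted p = 0.554). The difference between NPF6.3 and its relatives was not tested.

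Both NPF7 genes act on nitrate in the xylem, NPF7.3 (NRT1.5) in loading and NPF7.2 (NRT1.8) in removal, and neither passed. NPF7.3 (AT1G32450) measured 6.68, 7.14 and 7.42 CPM in WT and 8.70, 9.04 and 7.27 CPM in hrlp-2. The third hrlp-2 library lay within the WT range, and the log2 fold change was 0.24 (95% interval 0.01 to 0.46, adjusted p = 0.144). NPF7.2 (AT4G21680) measured 0.26, 0.44 and 0.45 CPM in WT and 0.56, 0.70 and 0.64 CPM in hrlp-2 (0.38, 95% interval -0.14 to 0.89, adjusted p = 0.33). Its groups did not overlap, at a level of few reads per library.

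Of the 4 NPF8 genes, all named as peptide transporters, 2 rose, beside 11.0% of all tested rows. NPF8.1 (PTR1) carries dipeptides across the plasma membrane and NPF8.3 (PTR2) across the vacuolar membrane. NPF8.1 (AT3G54140) measured 30.45, 31.00 and 29.33 CPM in WT and 38.08, 33.82 and 32.87 CPM in hrlp-2 (log2 fold change 0.22, SE 0.058, adjusted p = 0.00545). The groups did not overlap, and the call was lost without hrlp-2 replicate 1, its highest library (adjusted p = 0.0755). NPF8.3 (AT2G02040) measured 28.15, 28.65 and 24.04 CPM in WT and 33.51, 32.97 and 31.91 CPM in hrlp-2 (log2 fold change 0.30, SE 0.061, adjusted p = 0.00043). One WT library was lower than the other WT libraries, and all hrlp-2 libraries were above them. NPF8.2 (PTR5), a dipeptide transporter known from pollen, lay between 2.31 and 2.9 CPM in all libraries (0.16, adjusted p = 0.551).

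NPF8.4 (PTR4, AT2G02020), the neighbour of NPF8.3, had the lowest fold change of the tested members. It measured 5.70, 5.94 and 4.80 CPM in WT and 3.97, 4.70 and 3.96 CPM in hrlp-2, with no overlap, and it did not pass (log2 fold change -0.32, SE 0.14, adjusted p = 0.0901). The genes lie 6212 bases apart on the same strand, with 3 annotated genes between them, and share 76.0% of their aligned coding bases, with a longest identical run of 24 bases. The log2 ratio of NPF8.3 to NPF8.4 was 2.21, 2.18 and 2.21 in the WT libraries and 2.93, 2.69 and 2.86 in the hrlp-2 libraries, a difference of 0.63 between means. The SD of the ratio was 0.018 within WT and 0.12 within hrlp-2, each from 3 libraries, and the difference in spread was not tested. Neighbours were sought within 30000 bases among the 28 placed members only, so pairs with an unplaced member were not examined. The other such pair with both genes tested was NPF2.13 and NPF4.6, 15102 bases apart on chromosome 1. Its log2 ratio was 1.24 ± 0.039 in WT and 1.46 ± 0.046 in hrlp-2 (SD, n = 3 each), a difference of 0.23. These ratios are descriptions of values already given, and an exact permutation test of groups of 3 cannot give a p below 0.1.

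The NRT2 genes did not pass, and all 3 tested members had negative fold changes. NRT2.1 (AT1G08090), the main high-affinity nitrate transporter of the root, measured 1.74, 1.82 and 1.63 CPM in WT and 0.75, 2.00 and 1.38 CPM in hrlp-2. The hrlp-2 libraries lay on both sides of the WT libraries (log2 fold change -0.29, 95% interval -0.74 to 0.16, adjusted p = 0.396). Its value rested on single libraries, at -0.02 without hrlp-2 replicate 1 and -0.53 without hrlp-2 replicate 2. NRT2.7 (AT5G14570), which loads nitrate into seed vacuoles, was the most abundant NRT2 gene per kb of coding sequence (13.0 CPM per kb over all libraries). It measured 18.08, 21.42 and 20.14 CPM in WT and 18.94, 19.18 and 18 CPM in hrlp-2, with overlapping groups (-0.06, 95% interval -0.21 to 0.08, adjusted p = 0.608). NRT2.3 (AT5G60780) measured 2.89, 2.97 and 3.03 CPM in WT and 2.78, 2.75 and 2.81 CPM in hrlp-2, which did not overlap but differed little (-0.06, adjusted p = 0.84). NRT2.5 reached at most 0.09 CPM and NRT2.6 at most 0.69 CPM, and neither was tested.

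All 11 called members had a mean of at least 10 CPM, among 20 members at that level, and 0 of the 17 tested members below it were called. Of all tested rows at or over 10 CPM, 16.1% were called higher and 12.0% lower, with a median log2 fold change of 0.02, against 0.22 for the members at that level. The log2 fold changes of the 17 weaker members had a median of 0.16 and ran from -0.32 to 0.46. The SE of the log2 fold change was 0.045 for NPF1.2 and 0.046 for NPF2.11, but 0.20 for NPF2.9 and 0.22 for NRT2.1, so that a change of the size seen in the abundant genes was not detectable in genes as weak as these.

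**Figure D2:**
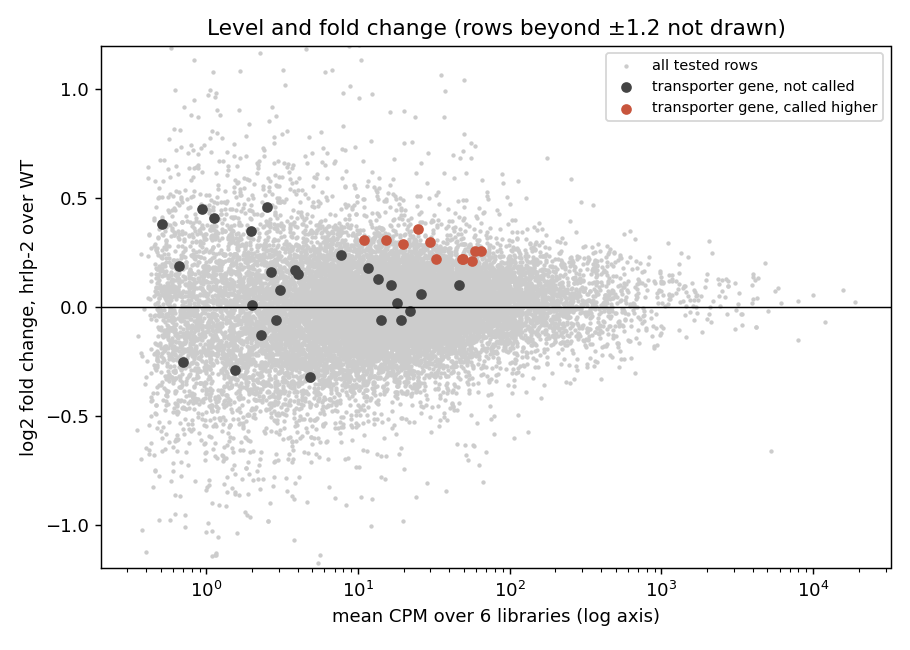
Mean CPM over the 6 libraries (horizontal, log axis) against the log2 fold change of hrlp-2 over WT (vertical) for all tested rows in grey and the tested NPF and NRT2 genes in black (not called) or red (called higher). The 11 red points all lie at or over 10 CPM and between 0.21 and 0.36, within the cloud of all rows, and rows beyond 1.2 in either direction are not drawn.

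Per kb of coding sequence, which allows levels of different genes to be compared, the most abundant placed member was NPF1.2, at 32.3 ± 1.27 CPM per kb in WT (SD, n = 3). NPF2.13 followed at 28.4 ± 1.47 and NPF2.10 at 28.2 ± 0.329 CPM per kb, which did not differ beyond their spread. NPF6.3, at 25.9 ± 1.62, NPF6.2, at 25.8 ± 1.24, and NPF2.11, at 24.3 ± 0.740 CPM per kb, also lay within each other's spread. NPF8.1 (17.7 ± 0.497) and NPF8.3 (15.3 ± 1.44) came next. At the other end, NPF2.12, NPF4.5, NPF5.13 and NRT2.5 had under 0.05 CPM per kb in WT. Of the 5 most abundant placed members over all libraries, 4 were called higher, beside 16.1% of all tested rows at or over 10 CPM. The 4 were NPF1.2, NPF2.10, NPF2.13 and NPF6.3, and NPF6.2 was not called. These most abundant members come from 3 subfamilies and carry nitrate or glucosinolates.

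**Figure D3:**
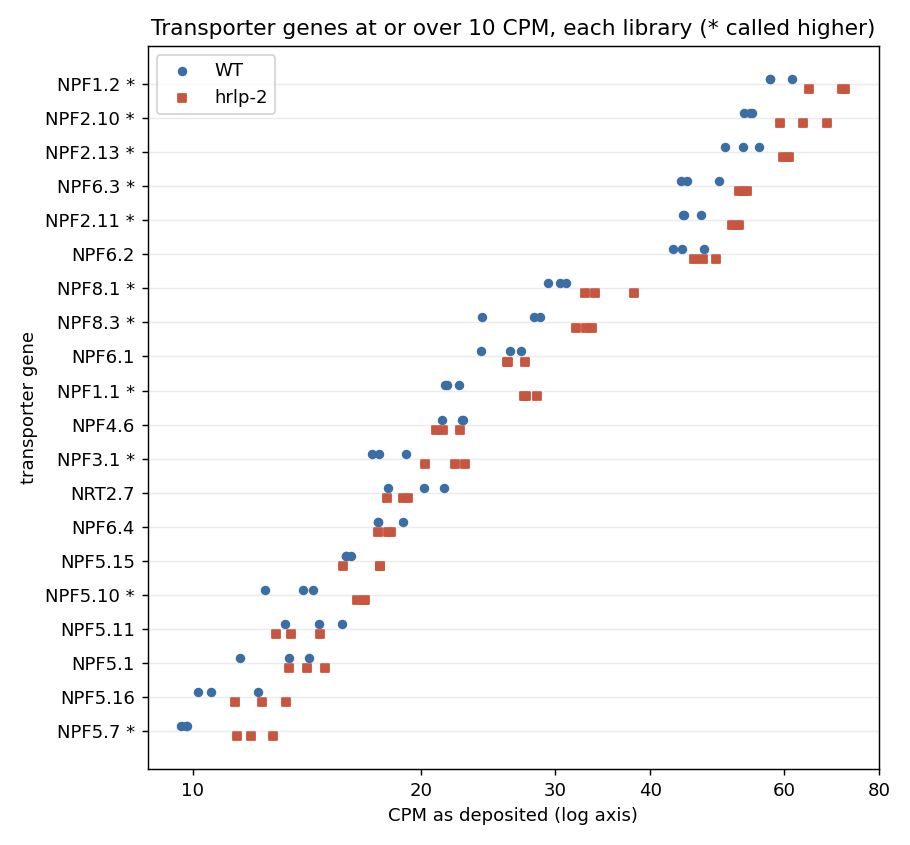
CPM as deposited in each library (horizontal, log axis) for the 20 NPF and NRT2 genes with a mean of at least 10 CPM, with WT as blue circles and hrlp-2 as red squares and an asterisk for genes called higher. For the 11 marked genes every red square lies to the right of every blue circle, while for the other 9 the symbols overlap.

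Summed over all 45 rows, the family took 609.7, 606.5 and 598.3 CPM in the WT libraries and 674.9, 683.3 and 679.3 CPM in the hrlp-2 libraries, a ratio of 1.12 between means. The ratio was 1.2 for NPF1 and NPF7, 1.21 for NPF3, 1.15 for NPF2 and NPF8, 1.12 for NPF5, 1.08 for NPF6, 1.01 for NPF4 and 0.938 for NRT2. For NPF4 the sums were 31.6 ± 0.322 CPM (WT) and 31.9 ± 1.07 CPM (hrlp-2), and for NRT2 24.9 ± 1.89 and 23.4 ± 0.740 CPM, so that in both subfamilies the groups overlapped. Counted by gene, the calls came to 2 of 2 tested NPF1 genes, 3 of 6 NPF2 genes and 1 of 1 NPF3 gene. They came to 2 of 11 NPF5 genes, 1 of 4 NPF6 genes and 2 of 4 NPF8 genes. Beside these, 11.0% of all tested rows were called higher and 9.31% lower, and nothing is read from counts this small. The 4 tested NPF4 genes, 2 tested NPF7 genes and 3 tested NRT2 genes gave 0 calls in either direction.

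**Figure D4:**
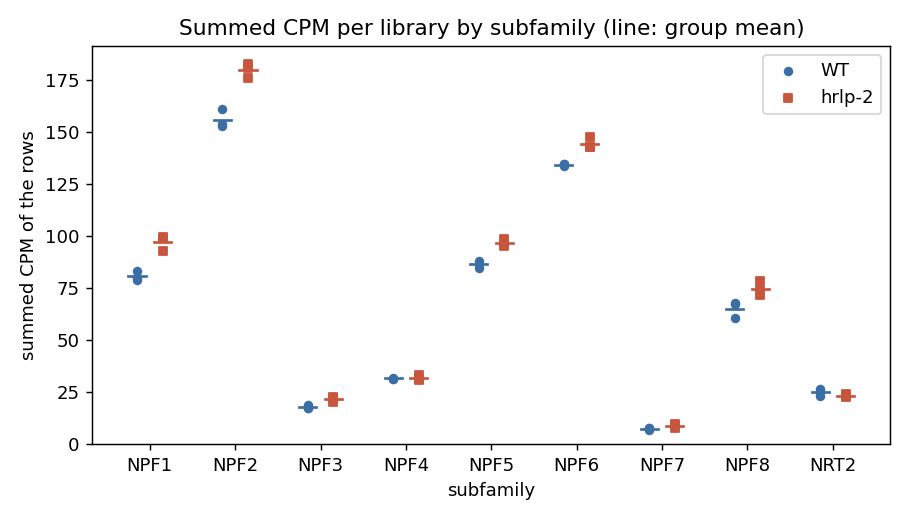
Summed CPM of the rows of each subfamily (vertical axis, from 0) in each library, with WT as blue circles, hrlp-2 as red squares and a line at each group mean. The hrlp-2 libraries lie above the WT libraries in NPF1, NPF2, NPF3, NPF5, NPF6, NPF7 and NPF8, and the groups overlap in NPF4 and NRT2.

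Other genes of nitrate use were read from a list of 42, of which 39 had a row and 36 were tested. The list, like the family, was chosen with earlier results of these data known. Called higher were 13 (36.1% of those tested, beside 11.0% of all tested rows) and called lower was 1 (beside 9.31%), with a median log2 fold change of 0.09. Nothing is read from these shares either, and the same shares over all rows stand beside the counts by role below. Both nitrate reductase genes, whose enzymes turn nitrate into nitrite, rose. NIA2 measured 262.15, 262.68 and 241.21 CPM in WT and 297.81, 300.66 and 291.06 CPM in hrlp-2 (log2 fold change 0.24, adjusted p = 1.44e-07). NIA1 went from 24.5 ± 0.997 to 28.9 ± 0.657 CPM (0.26, adjusted p = 0.00178). NIR1, the nitrite reductase gene, measured 374 ± 8.19 and 384 ± 7.77 CPM and did not pass (0.06, adjusted p = 0.0824).

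Of the 8 tested genes of glutamine and glutamate synthesis, 3 rose, beside 11.0% of all tested rows. They were the cytosolic glutamine synthetase genes GLN1-1 (0.21, adjusted p = 0.000972) and GLN1-3 (0.17, adjusted p = 0.0127) and the NADH-dependent glutamate synthase gene GLT1 (0.09, adjusted p = 0.00408), all as log2 fold changes. Of the 8 tested genes of partner proteins, anion channels and ammonium transporters, 2 rose, beside the same 11.0%. CLC-A, the nitrate-proton exchanger of the vacuolar membrane, measured 117.55, 120.58 and 107.46 CPM in WT and 147.99, 143.01 and 146.36 CPM in hrlp-2 (0.36, adjusted p = 2.23e-09). SLAH3, a nitrate-permeable anion channel gene, went from 11.4 ± 1.3 to 15.4 ± 1.40 CPM (0.43, adjusted p = 0.0006). NRT3.1, the partner of the NRT2 transporters, measured 5.48 ± 0.605 and 4.85 ± 0.374 CPM (-0.14, adjusted p = 0.512), also with a negative fold change.

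Of the 16 tested kinases and regulators, 6 rose, beside 11.0% of all tested rows, and 1 fell, beside 9.31%. BT2, a BTB-domain protein gene that represses nitrate uptake genes, had the largest log2 fold change of the tested genes of the list. It measured 138.35, 140.72 and 131.90 CPM in WT and 218.47, 212.89 and 220.62 CPM in hrlp-2 (log2 fold change 0.68, SE 0.030, adjusted p = 1.31e-17). Its relative BT1 rose less (0.16, adjusted p = 0.0116). LBD37 (0.35, adjusted p = 1.36e-06), LBD38 (0.26, adjusted p = 0.00793) and LBD39 (0.26, adjusted p = 0.0048), known as nitrate-induced repressors of nitrate-responsive genes, rose, as did HHO3 (0.28, adjusted p = 4.82e-06), a repressor of nitrate transporter genes. TGA4, a nitrate-responsive bZIP factor gene, fell from 11.2 ± 1.27 to 8.88 ± 0.198 CPM (-0.29, adjusted p = 0.0331), and that call was lost in 6 of 12 alternatives. NLP7, the master regulator of the nitrate response, measured 37.5 ± 2.17 and 35.9 ± 1.70 CPM and did not pass (-0.04, adjusted p = 0.647).

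**Figure D5:**
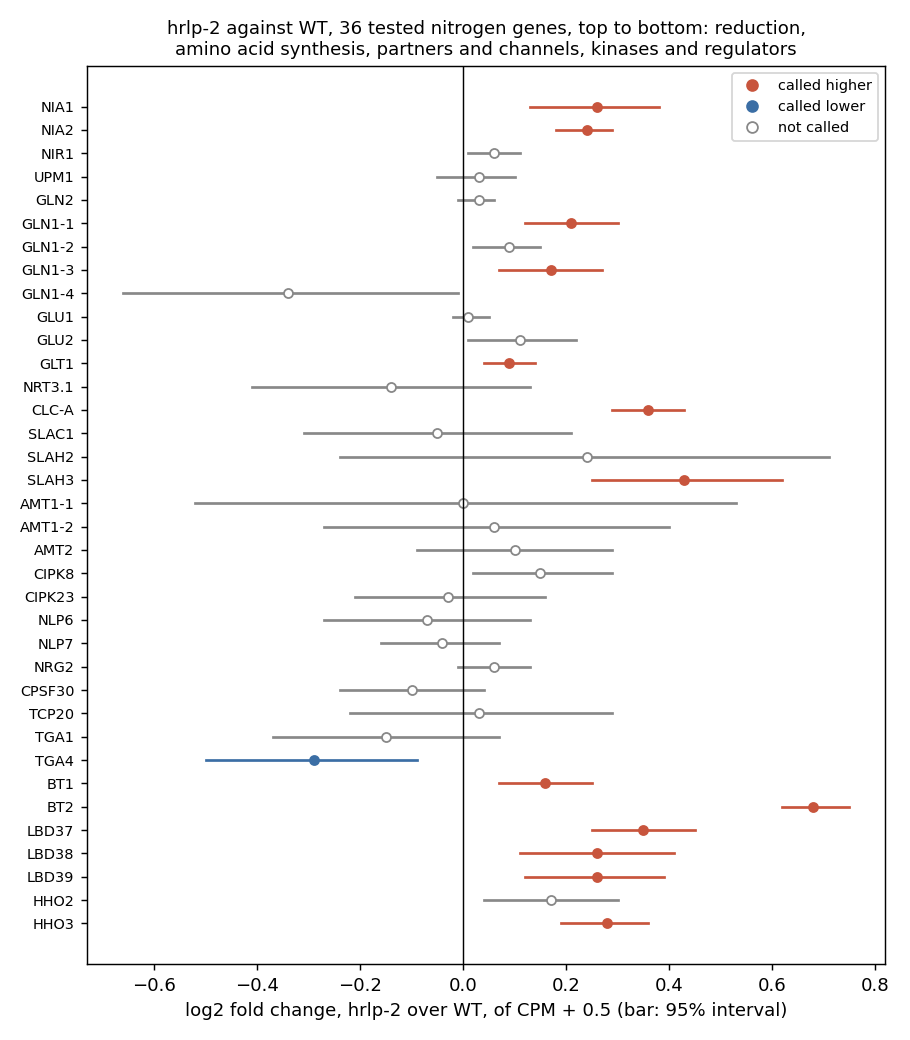
Log2 fold change of hrlp-2 over WT (horizontal axis, on CPM + 0.5, bars are 95% intervals of the limma fit) for the 36 tested genes of the nitrogen list, ordered by role. BT2 stands farthest to the right at 0.68, 13 genes in all are called higher (red), TGA4 alone is called lower (blue) and 22 are not called (open).

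Some markers of cell types in which transporters are expressed also moved with the groups. SUC2, the sucrose transporter gene that marks phloem companion cells, measured 94.08, 96.55 and 94.96 CPM in WT and 116.22, 110.84 and 109.53 CPM in hrlp-2 (log2 fold change 0.26, adjusted p = 1.18e-06). This was the whole phloem list, at a fold of 1.19, beside folds of 1.28 for NPF1.1, 1.2 for NPF1.2 and 1.16 for NPF2.13. NPF2.9, the phloem nitrate transporter known from roots, went the other way at a fold of 0.92 and was not called. Both guard cell markers fell, FAMA from 26.6 ± 0.200 to 22.3 ± 1.1 CPM (-0.23, adjusted p = 0.00626) and MYB60 from 15.5 ± 1.80 to 11.1 ± 1.13 CPM (-0.44, adjusted p = 0.000659). Of the 3 leaf mesophyll markers, RBCS1A (row RBCS-1A) passed as higher with a log2 fold change of 0.08 (adjusted p = 0.000183). RCA (0.03, adjusted p = 0.186) and LHCB1.3 (0.02, adjusted p = 0.279) did not pass. The part of these cell types in the transporter values was not tested.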

How the data were processed

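The authors deposited 1 table per library of counts per gene in CPM, scaled so that each library has the same total, as the column sums of 1000000.4 to 1000007.8 show. The submitters' processing notes name STAR 2.7.3a and the TAIR10 build. The labels' protocols name a directional library kit. For the counter, annotation and strand setting, nothing is given in the sources used here. Between 88.0% and 89.5% of values under 2 CPM lay within 0.0051 CPM of whole reads, against 20.4% to 25.7% by spacing alone. Because the values are CPM, a test on the log scale was used and no count model.

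Row names were matched to loci through RefSeq's TAIR10.1 table (19377 of 22759 named rows), and 1 unnamed row per table was left out. The test used the 18643 rows that reached 0.5 CPM in 3 or more libraries. Values were divided by unweighted trimmed-mean-of-M factors (30% of M and 5% of A values trimmed), which ranged from 0.9901 to 1.0130, and 0.5 CPM was added before the log2 step. Fold changes therefore understate the change of weak genes. Two-sided limma tests (limma 3.58.1, R 4.3.3, intensity trend) were adjusted by Benjamini-Hochberg over all tested rows, with a threshold of 0.05. The functions were tested on simulated data, where recovery of changed rows was required only for folds larger than those of the called members. Groups and replicate numbers came from the sample titles.

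Members and gene lists were chosen with earlier results of these data known. Genes named with values are all called members, members of textbook transport role, the 5 highest per kb of coding length, and, of the nitrogen list, the called genes with NIA1, NIA2, NIR1, NRT3.1 and NLP7. Values of any other member were chosen for mention with those values in view. The alternatives were 2 filters, another pseudocount, 2 other scalings, the replicate block and 6 fits that leave out 1 library. No pair of libraries was a duplicate by a chi-square statistic on estimated reads, whose mean was higher for WT replicate 3 against the other WT libraries (13.38 and 11.27) than for other pairs (2.26 to 2.51). Estimated reads cover counting error only.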

Additional observations from a re-analysis of the deposited data

How the results depend on the processing

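The 11 members called higher, and 0 called lower, were unchanged without an expression filter, with a filter of 1 CPM, with a pseudocount of 1 CPM, with upper-quartile scaling and with the CPM as deposited. With single libraries left out, 9 to 12 members were called higher. NPF5.7 (adjusted p = 0.0757) and NPF8.1 (0.0755) were lost without hrlp-2 replicate 1, and NPF5.9 joined without WT replicate 3 (0.0216). The family's median log2 fold change was positive under every alternative run. The sign changed for 6 uncalled members, which were NPF6.4 and NPF4.7 in 3 alternatives each (the CPM as deposited among them) and NPF2.9, NPF4.6, NPF5.2 and NPF5.8 in 1 fit each that left out a library. Positive fold changes numbered 26 (of 33 members fitted, with the filter of 1 CPM) to 29. Of the nitrogen genes, 0 were called lower without an expression filter and 0 to 1 when single libraries were left out, since TGA4 was then lost in all fits but that without WT replicate 1 (adjusted p up to 0.172). GLN1-3 was lost in 2 of those fits (up to 0.0872), BT1 in 2 (up to 0.0722) and LBD38 in 1 (0.0621), and NIR1 passed without hrlp-2 replicate 3 (0.0465). Same-numbered libraries of the groups did not deviate together (correlations of -0.008, -0.016 and -0.026). No shared deviation by number was seen, which cannot show that the samples were prepared unpaired. With the replicate block, 11 members were again called higher, 2057 rows higher and 1727 lower, against 2059 and 1735 without it. The balance over all rows turned with the scaling, at 1639 higher and 2035 lower with the CPM as deposited and 1862 and 1885 with upper-quartile scaling. Depth limits what can be said of the 17 tested members under 10 CPM and the 8 that were not tested.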

Other observations

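Some relatives of the family carry other row names and were not counted among the members. NPF2.7 (row NAXT1), a nitrate exporter of the plasma membrane, measured 5.10, 3.15 and 3.26 CPM in WT and 3.30, 4.0 and 3.91 CPM in hrlp-2, with overlapping groups. NPF8.5 (a row named by its locus, AT1G62200) measured 18.76, 18.58 and 19.28 CPM in WT and 21.16, 20.78 and 20.63 CPM in hrlp-2, where every hrlp-2 library was above every WT library. For NRT2.2, NRT2.4, NPF4.1 and NPF4.2 no row was found by name or locus, so no values are given for them.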
